A study of Mus musculus with 12 samples.

Results

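Mouse embryonic stem cells of the E14 line (129/Ola background) in which Dicer had been put back, the line called SOM, were set against wild-type cells (WT) to ask which features of the transcriptome complementation does not restore. The comparison uses 4 poly(A) RNA libraries, both SOM and both WT libraries, chosen by their sample labels out of 12 in the series. The Dicer knockout (KO, 2 libraries) is given beside them as cells without complementation. The lines 41584 (described as close to WT), 41589 (siRNA processing lost) and 41585 (miRNA and siRNA processing lost), with 2 libraries each, are used where they bear on a SOM value. All groups grew on gelatine in serum and LIF, and the protocol names puromycin for complemented, knockout and WT control lines alike. The labels do not say what the name SOM means, which allele was deleted in KO or which Dicer construct was put back, nor whether a line is 1 clone or whether its libraries are separate cultures, so p-values measure only the spread between libraries, which may be technical.

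Dicer cuts hairpin precursors into mature miRNAs and long double-stranded RNA into siRNAs, which are loaded on Argonaute proteins to repress matching transcripts. In mouse ES cells a large part of the miRNA pool belongs to families with the seed AAGUGC, which are known to shorten the G1 phase by repressing cell cycle inhibitors. The let-7 family opposes them and accumulates on differentiation. The sequences of these miRNAs are shown because 2 of the gene lists below are made of their reported targets; the seed, bases 2 to 8, is in capitals (RefSeq, GRCm38.p6). The miRNAs themselves were not measured in poly(A) RNA.
mmu-miR-291a-3p: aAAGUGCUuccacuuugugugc
mmu-miR-294-3p: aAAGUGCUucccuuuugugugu
mmu-miR-295-3p: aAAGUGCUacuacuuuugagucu
mmu-miR-302b-3p: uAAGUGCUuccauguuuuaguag
mmu-let-7a-5p: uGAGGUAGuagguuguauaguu
mmu-let-7g-5p: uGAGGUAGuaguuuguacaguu
The first 4 share the seed AAGUGCU and the other 2 share GAGGUAG. The first 3 are cut from neighbouring hairpins, at chr7:3218968-3218989, chr7:3220691-3220712 and chr7:3220815-3220837 on the plus strand. The miR-302b copy lies at chr3:127545275-127545297 (plus), the let-7a copy at chr13:48538239-48538260 (minus) and let-7g at chr9:106178846-106178867 (plus).

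The WT libraries held 6688152 and 8863145 counted reads and the SOM libraries 5860977 and 5348401. ES cell markers (Pou5f1, Sox2, Nanog, Zfp42, Esrrb and Dppa5a) summed to 4720 to 5485 CPM (reads of a gene scaled to a common library total) in these 4 libraries. Feeder fibroblast markers summed to 9.74 to 15.6 CPM, most of it Thy1, with Col3a1, Lum and Postn at 0 in all 4. Afp of the primitive endoderm markers was also at 0. In bulk RNA, fewer cells of a type and less RNA per cell cannot be told apart. On log2 CPM the SOM libraries correlated with each other at 0.967 and with the WT libraries at 0.917 to 0.954. They correlated at 0.964 to 0.978 with the second libraries of 41584 and 41589, which lay further from their own first libraries (0.935 and 0.948). The median difference between SOM and WT went with transcript GC content, from −0.32 on the log2 scale in the lowest of 4 equal groups of genes by GC to 0.32 in the highest. WT 1 moved most with it among the 4 libraries, at 0.40 in the lowest and −0.50 in the highest group relative to the mean of all 12 libraries. The part of GC content in single-gene differences was not tested beyond the fits with the GC and length trend removed, which are given below.

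**Figure D1:**
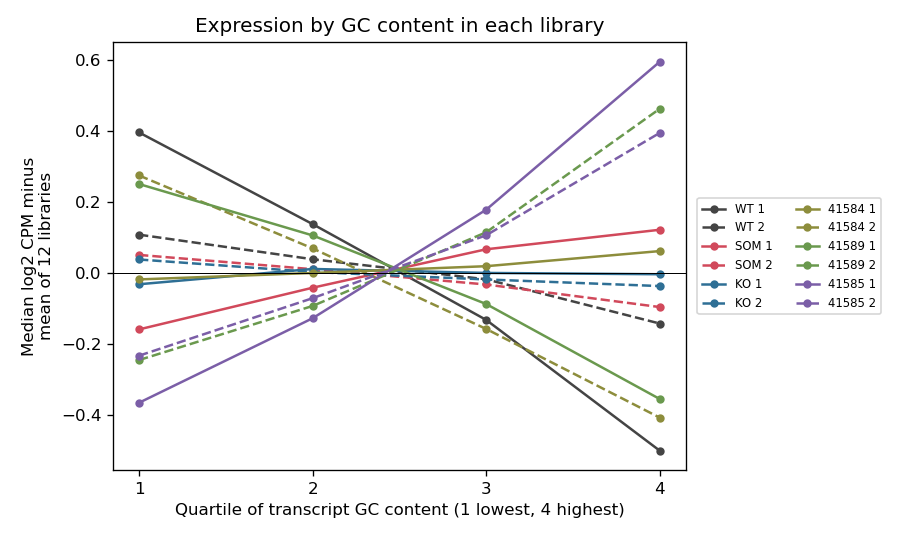
Median log2 CPM of each library minus the mean of the 12 libraries (y axis) in 4 equal groups of genes by transcript GC content (x axis), solid lines for replicate 1 and dashed for replicate 2. WT 1 falls from 0.40 to −0.50 while SOM 1 runs from −0.16 to 0.12 and SOM 2 from 0.05 to −0.10.

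No gene passed the primary test between SOM and WT. In edgeR's quasi-likelihood test over all 12 libraries, 0 of 14629 genes (0%) had an adjusted p under 0.05, and the smallest adjusted p was 0.119. At an unadjusted p under 0.05 the same test listed 3175 genes (21.7%), 1457 higher and 1718 lower in SOM. In that fit the spread was set by all 6 groups, with a common biological coefficient of variation of 0.278. Fitted on the 4 SOM and WT libraries alone, where that coefficient was 0.217, edgeR called 2035 of 12956 genes (15.7%), 977 higher (7.54%) and 1058 lower (8.17%). DESeq2 on all 12 libraries called 681 of 11792 genes (5.78%), 320 higher (2.71%) and 361 lower (3.06%). Leaving out WT 1 left 3 DESeq2 calls (Efhc2, Tmem181a and Smyd1) and 396 calls of edgeR on the remaining 3 libraries. Leaving out SOM 1 left 31 and 1048. Genes are therefore described below as higher or lower by their values, and each call is credited to its fit. A ± value is the standard error of the primary edgeR fit, also where a DESeq2 adjusted p follows it. A DESeq2 adjusted p of SOM against WT is not comparable with an edgeR adjusted p of another comparison.

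The knockout gives the scale. In the primary test 1929 genes (13.2%) differed between KO and WT, 1066 higher (7.29%) and 863 lower (5.9%) in KO. Between SOM and KO 889 genes (6.08%) differed, 216 higher (1.48%) and 673 lower (4.6%) in SOM. These comparisons share their SOM, KO or WT libraries with the one between SOM and WT, so their values are set side by side only.

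**Figure D2:**
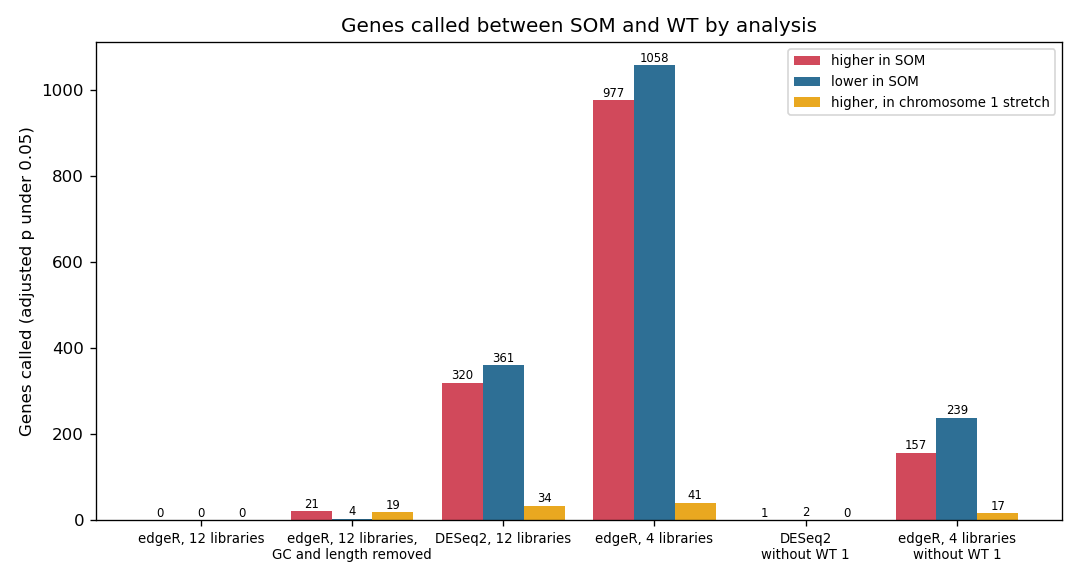
Number of genes called between SOM and WT at an adjusted p under 0.05 (y axis) in 6 analyses (x axis), with red bars for genes higher in SOM, blue for lower, and yellow for those higher genes that lie in the stretch of chromosome 1 described below. The counts run from 0 in the primary test to 977 and 1058. With the GC and length trend removed on 12 libraries, 19 of 21 higher calls lay in the stretch. On 4 libraries (not drawn) 55 of 1232 did.

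Dicer1, which lies at chr12:104687742-104751952 (GRCm38), was at the WT level in one SOM library and between KO and WT in the other. WT held 198 and 214 CPM, SOM 105 and 215, and KO 28.5 and 44.0. The SOM and WT ranges overlapped. The log2 difference between SOM and WT was −0.36 ± 0.34 (SE of the edgeR fit, adjusted p = 0.534), and turned to 0.068 without SOM 1. Against KO it was 2.14 ± 0.35 (edgeR adjusted p = 0.0052). Reads on Dicer1 in 41584, 41589 and 41585 lay between 27.8 and 55.0 CPM, below both SOM libraries and close to KO, although 41584 is labelled as close to WT. These counts do not say whether a construct that differs from the mouse gene would be counted.

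The small RNA machinery list had members on both sides of WT and few calls. Of its 21 members, DESeq2 and the primary edgeR test called 0. EdgeR on 4 libraries called 1 higher and 1 lower, against 7.54% and 8.17% of all genes. At an unadjusted p under 0.05 the primary test listed 3 higher and 7 lower, where it listed 9.96% and 11.7% of all genes. Both SOM libraries lay above both WT libraries in 8 members and below in 7, against 27.9% and 31.9% of all genes. Lin28a, which blocks let-7 maturation, was the member called higher, at 284 and 325 CPM in SOM against 121 and 211 in WT. KO held 18.5 and 24.2 CPM of it, where it fell by 2.96 ± 0.37 on the log2 scale (edgeR adjusted p = 0.00065). Ago4, an Argonaute, was the member called lower, at 1.37 and 0.38 CPM against 5.10 and 3.17. Drosha and Dgcr8, which cut the primary transcripts, overlapped between SOM and WT. The effector Ago1 stood at 79.2 and 151 CPM in SOM, above 57.7 and 77.7 in WT and below 226 and 213 in KO.

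Reported targets of the AAGUGC miRNAs differed from WT singly. DESeq2 called 1 of 17 tested members higher and 1 lower, where it called 2.71% and 3.06% of all genes. Of the 15 members it tested, edgeR on 4 libraries called 2 higher and 1 lower, against 7.54% and 8.17% of all genes. Their median log2 difference was −0.16, against −0.03 over all genes, and turned to 0.066 without SOM 1. It was 0.75 in KO against WT, where 5 members rose, against 7.29% of all genes. Lats2, a Hippo pathway kinase, was the member that DESeq2 called higher, with 4.799 and 11.3 CPM in SOM, 1.24 and 1.53 in WT and 29.9 and 22.3 in KO. Both SOM libraries lay above both WT and below both KO libraries. The log2 difference between SOM and WT was 2.51 ± 0.62 (DESeq2 adjusted p = 0.0060, primary edgeR adjusted p = 0.135). Cdkn1a, which encodes the cell cycle inhibitor p21, went the other way, with 22.3 and 30.4 CPM in SOM, 106 and 66.8 in WT and 92.6 and 89.8 in KO. SOM was therefore below both other groups, by 1.71 ± 0.39 log2 units against WT (DESeq2 adjusted p = 0.0031, primary edgeR 0.135).

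The annotated 3′ UTRs of both genes hold 2 copies of AGCACTT, the match to the seed AAGUGCU on the transcript strand. That 7-mer occurs in the longest 3′ UTR of 14.7% of 20999 protein-coding genes, and in those of 16 of the 18 listed targets. The first copy in each of the 2 genes is shown in capitals within 29 bases (GENCODE M21, GRCm38). They lie at chr14:57691076-57691104 on the minus strand and chr17:29099817-29099845 on the plus strand, both in 3′ UTR exons.
Lats2: agtatggaaagAGCACTTattttgtggat
Cdkn1a: cagacctgaatAGCACTTtggaaaaatga
A match is a description of letters, and binding was not measured. With the same motif in both UTRs, 1 gene was higher and the other lower in SOM than in WT.

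Lefty1, an inhibitor of Nodal, stood at 1.71 and 4.32 CPM in SOM, 2.01 and 4.59 in WT and 20.3 and 30.8 in KO. Its SOM and WT values overlapped, and it was 3.08 ± 0.51 log2 units lower in SOM than in KO (edgeR adjusted p = 0.0051). Rbl2, a pocket protein of the cell cycle, was at 10.3 and 24.2 CPM in SOM, 36.3 and 27.4 in WT and 35.0 and 34.2 in KO (SOM against WT −0.88 ± 0.37, edgeR adjusted p = 0.197).

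In the let-7 target list the calls were all higher. DESeq2 called 3 of its 23 members higher and 0 lower, where it called 2.71% and 3.06% of all genes. EdgeR on 4 libraries called 6 higher and 0 lower of the 22 it tested, against 7.54% and 8.17%. The median was 0.39, and 0.16 without SOM 1. The 3 were cyclins Ccnd1 and Ccnd2 and the growth regulator Myc. Ccnd1 stood at 109 and 159 CPM in SOM, 29.7 and 48.5 in WT and 230 and 234 in KO, so SOM was between them. Ccnd2 stood at 20.1 and 47.2 CPM in SOM against 3.25 and 3.83 in WT. Myc, at 43.4 and 23.9 CPM against 2.78 and 14.9, was not called by edgeR on 4 libraries (adjusted p = 0.17). None of these 3 genes has the let-7 seed match CTACCTC in its longest annotated 3′ UTR, a 7-mer found in 9.0% of all such UTRs and in 15 of the 23 listed. The longest such UTR of Lin28a, which edgeR on 4 libraries called higher, holds 2 copies.

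The interferon and double-stranded RNA sensing genes, most of which rose in KO, had no common direction between SOM and WT. In KO against WT 22 of 34 tested members rose and 0 fell, against 7.29% and 5.9% of all genes, with a median of 1.83. In SOM against WT DESeq2 called 1 member higher and 0 lower, against 5.78% of all genes called either way. EdgeR on 4 libraries called 3 higher and 1 lower of the 23 it tested, against 15.7%. The median was 0.24, and leaving out 1 library moved it from −0.095 (without SOM 2) to 0.49 (without WT 2), with 0.083 without WT 1. Between SOM and KO 14 members were lower in SOM and 0 higher, against 4.6% and 1.48% of all genes. Irf9, a subunit of the interferon-activated transcription complex, stood at 16.8 and 21.8 CPM in SOM, 15.8 and 20.2 in WT and 54.5 and 51.6 in KO. Eif2ak2, the kinase PKR, stood at 40.8 and 56.2 CPM in SOM, 51.3 and 52.0 in WT and 102 and 99.9 in KO. Both overlapped between SOM and WT.

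Ddx58, which encodes the RNA sensor RIG-I, was the member called by DESeq2. It stood at 106 and 106 CPM in SOM, 4.95 and 20.4 in WT and 126 and 108 in KO. SOM lay beside the lower KO library and above both WT libraries, by 3.04 ± 0.78 on the log2 scale (DESeq2 adjusted p = 0.040, primary edgeR 0.135). The first libraries of 41584 and 41589 had 13.2 and 25.9 CPM and the second 99.5 and 66.6, so each of those lines had a library on the side of WT and one on the side of SOM. Ifitm3, an antiviral membrane protein, was at 126 and 93.0 CPM in SOM, between 33.1 and 61.4 in WT and 219 and 176 in KO.

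Epithelial and trophectoderm lists, with many members that rose in KO, had medians below 0 in SOM against WT. Of the 27 epithelial genes, 11 rose and 0 fell in KO (median 1.41), against 7.29% and 5.9% of all genes. In SOM DESeq2 called 0 higher and 3 lower, where it called 2.71% and 3.06% of all genes. EdgeR on 4 libraries called 2 higher and 5 lower of the 23 it tested, against 7.54% and 8.17%. Both SOM libraries lay above both WT libraries in 4 epithelial genes and below in 13, against 27.9% and 31.9% of all genes. The median was −0.45, and −0.17 without SOM 1 and −0.70 without SOM 2. Of the 16 tested trophectoderm genes 7 rose in KO (median 1.012), against 7.29% of all genes. In SOM DESeq2 called 1 of them lower and edgeR on 4 libraries 3 lower of the 13 it tested, with 0 higher in both. Their median was −0.38, and −0.23 without WT 1. The keratin Krt8 stood at 4.29 and 2.07 CPM in SOM, 4.02 and 6.67 in WT and 116 and 115 in KO. Cdh1, which encodes E-cadherin, stood at 303 and 462 CPM in SOM and 401 and 412 in WT, against 759 and 738 in KO. The genes below WT included the desmosome component Dsp, with 16.3 and 27.4 CPM against 69.3 and 54.7, and the tight junction gene Cldn7, with 0.51 and 1.503 against 6.19 and 3.72. Tfap2c, a transcription factor of trophectoderm and germ cells, was at 23.3 and 23.5 CPM in SOM against 73.8 and 55.1 in WT (−1.46 ± 0.33, DESeq2 adjusted p = 0.0057).

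**Figure D3:**
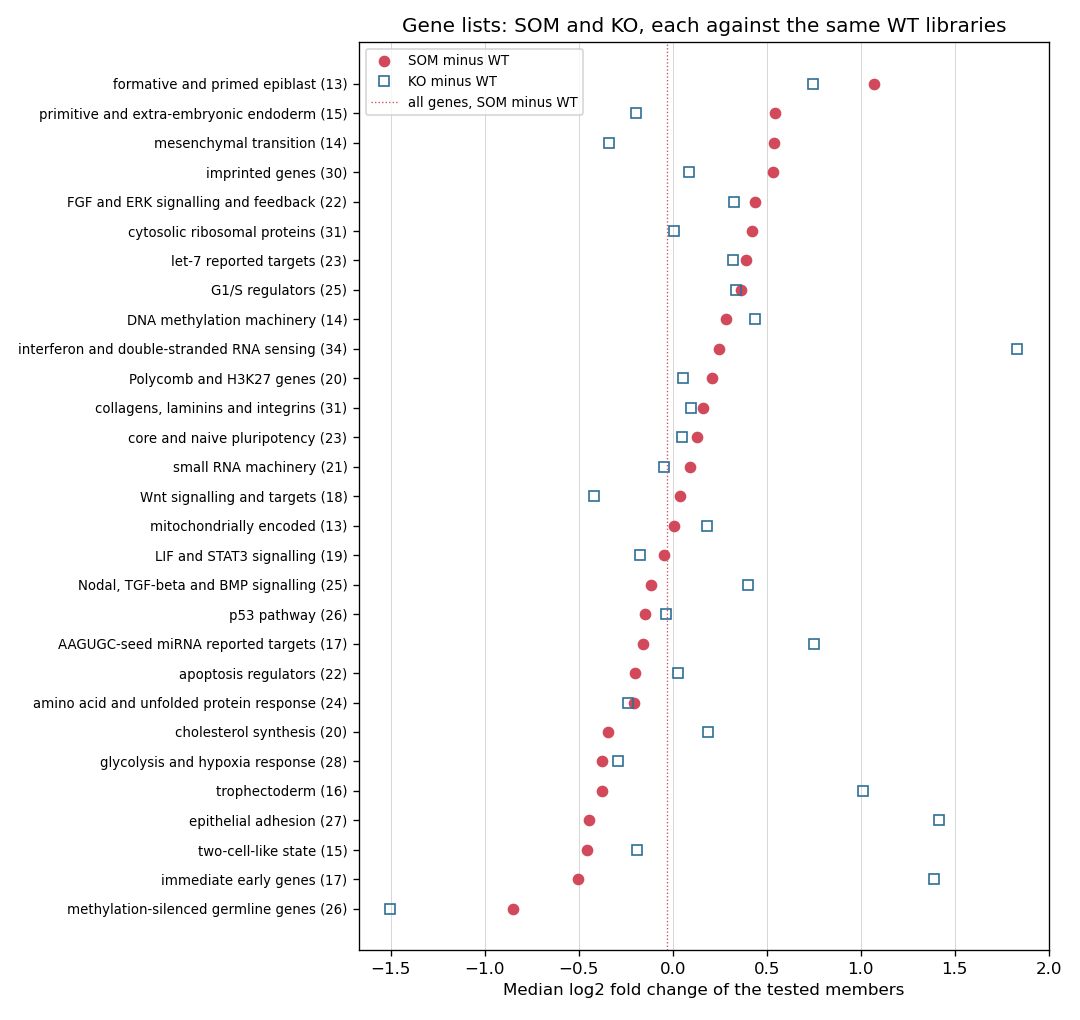
Median log2 fold change of the tested members of each gene list with at least 10 (x axis; number of members in brackets) for SOM minus WT (filled circles) and KO minus WT (open squares), 2 comparisons that share the WT libraries. Interferon genes have a median of 1.83 in KO and 0.24 in SOM, epithelial genes 1.41 and −0.45, and the formative list 0.74 and 1.07.

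A stretch of chromosome 1 stood above WT over many neighbouring genes. From its first to its last gene it spans chr1:131053700-156939626. Its ends were set after the values were seen, and it holds 104 genes with a mean of at least 5 CPM. In 73 of them (70.2%) both SOM libraries lay above both WT libraries, against 31% of the 10461 such genes of the genome, and in 4 both lay below, against 30.5%. DESeq2 called 34 of the 104 higher and 0 lower, where it called 2.99% of all such genes higher. EdgeR on 4 libraries called 41 higher and 0 lower, against 8.66%. Without WT 1 DESeq2 called 0 of the 104 and edgeR on the remaining 3 libraries 17, all higher. The median log2 difference was 0.67, which is 1.59-fold, and its quartiles were 0.34 and 1.11. In the 10 Mb before and after, the medians were −0.29 (21 genes) and −0.23 (44 genes). The median over all other chromosomes was 0.02. Of the autosomes, chromosome 15 had the lowest median, −0.22, and −0.14 with the GC and length trend removed. In KO against WT its median was 0.12, and the cause was not tested.

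The elevation was present in both SOM libraries and in every other line that is not WT. Relative to the mean of WT, the median of the stretch was 0.60 in SOM 1 and 0.83 in SOM 2. In the KO libraries it was 0.71 and 0.71, in 41584 0.87 and 0.78, in 41589 0.87 and 0.79, and in 41585 0.75 and 0.78. The WT libraries lay at 0.01 and −0.01. All 10 libraries of the 5 other lines lay at 0.60 or above. With the trend on GC and length taken out of every library, the SOM medians were 0.85 and 0.97 and those of the other 8 libraries 0.75 to 0.95. On that scale the other chromosomes had medians of 0.15 and 0.13 in SOM. In that fit, chosen after the data were seen, edgeR on 12 libraries called 25 genes between SOM and WT, 21 higher and 4 lower. Of the 21 higher genes 19 lay in the stretch, and the other 2 were Sparc and Smyd1. With the trend removed on the 4 SOM and WT libraries, edgeR called 1232 higher, 55 of them in the stretch, and 888 lower. Whether WT or the other lines depart from their common parent cannot be told apart here, and the cause was not tested.

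**Figure D4:**
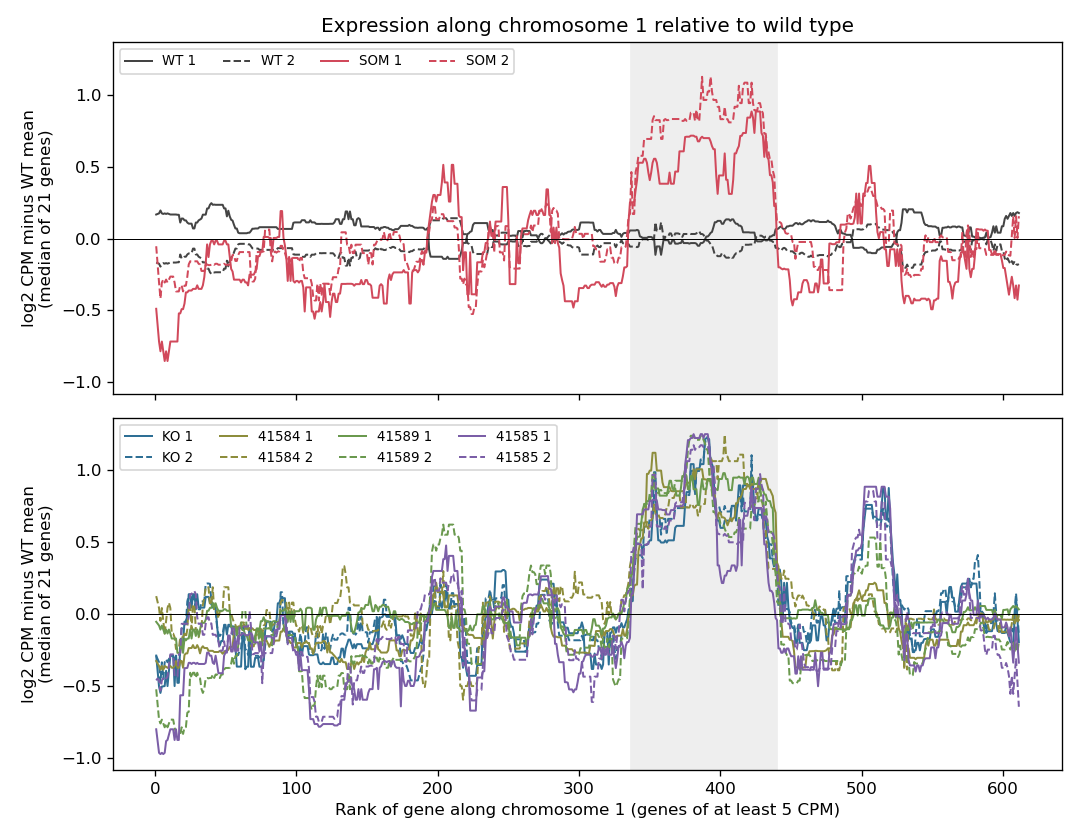
Running median over 21 neighbouring genes of log2 CPM minus the WT mean (y axis) against gene rank along chromosome 1 (x axis), for WT and SOM (top) and the other 4 lines (bottom), with the 104 genes of the stretch on a grey ground. Both SOM libraries and all 8 libraries below stand above WT within the grey band, and their lines turn at its 2 edges.

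Genes of the stretch had unlike functions. Timm17a, a subunit of the mitochondrial inner membrane translocase at chr1:135295213-135313778, stood at 103 and 93.8 CPM in SOM, 38.7 and 39.1 in WT and 91.1 and 98.8 in KO. Its difference from WT was 1.34 ± 0.21 in SOM (DESeq2 adjusted p = 5.2e-05, primary edgeR 0.119 or above) and 1.29 ± 0.21 in KO (edgeR adjusted p = 0.0031). Between SOM and KO it was 0.05 ± 0.20 (edgeR adjusted p = 0.92).

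Lamc1, a laminin chain at chr1:153218922-153332786, stood at 326 and 432 CPM in SOM, 83.4 and 114 in WT and 420 and 358 in KO. Glul, glutamine synthetase, at chr1:153899944-153909723, stood at 258 and 276 CPM in SOM, above 43.5 and 65.6 in WT and 154 and 115 in KO. The importin Ipo9 stood at 185 and 213 CPM in SOM and 81.4 and 94.2 in WT. For each of these genes the SOM and WT ranges were apart, and Lamc1 was 1.94 ± 0.32 log2 units above WT (DESeq2 adjusted p = 1.5e-05, primary edgeR 0.119).

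Several genes that other lists would count lie inside the stretch. Nr5a2, a nuclear receptor of the pluripotency network, stood at 110 and 139 CPM in SOM and 51.8 and 53.7 in WT. KO, which shows the elevation of the stretch, had 53.4 and 55.7 CPM of it. Rnf2, a catalytic subunit of Polycomb repressive complex 1, stood at 223 and 264 CPM in SOM, 145 and 107 in WT and 266 and 297 in KO. Of the p53 pathway genes there, Mdm4 (480 and 883 CPM against 770 and 668) and Btg2 (27.8 and 58.6 against 39.9 and 27.02) overlapped WT. The third, Phlda3, an inhibitor of Akt, stood at 14.7 and 22.0 CPM in SOM, above 9.90 and 8.42 in WT. The part of the stretch in the counts of the lists was not tested, but it holds at most 3 members of any 1 list.

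The core and naive pluripotency genes differed in both directions. DESeq2 called 5 of the 23 members higher and 3 lower, where it called 2.71% and 3.06% of all genes. EdgeR on 4 libraries called 7 higher and 3 lower, against 7.54% and 8.17%. The median was 0.13, and 0.076 to 0.22 on leaving out 1 library. Nanog, Sox2, Esrrb and Zfp42 were not called in any of these fits. Pou5f1, which encodes the core factor Oct4, was at 749 and 551 CPM in SOM, 140 and 322 in WT and 509 and 465 in KO. Its log2 difference from WT was 1.49 ± 0.44 (DESeq2 adjusted p = 0.018), and WT 1 had the lowest value of all 12 libraries. Klf4, a naive factor held up by LIF, was at 173 and 175 CPM in SOM, between 375 and 250 in WT and 53.8 and 51.7 in KO. It fell by 2.56 ± 0.27 in KO (edgeR adjusted p = 0.00028) and stood 1.72 ± 0.26 higher in SOM than in KO (edgeR adjusted p = 0.0032).

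Fgf4, the autocrine ligand that drives ES cells toward commitment, was at 90.2 and 157.4 CPM in SOM, below 309 and 266 in WT and 466 and 429 in KO. Its difference from WT was −1.22 ± 0.26 (DESeq2 adjusted p = 0.0034, primary edgeR 0.135). Dppa3, a maternal factor, was lower as well, at 1.2 and 1.3 CPM against 7.11 and 8.42. Gdf3, a TGF-beta ligand, and Utf1, a chromatin factor of pluripotent cells, were higher, Gdf3 at 73.7 and 66.9 CPM against 15.9 and 27.6.

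Genes of the formative epiblast, the state that follows naive pluripotency, were higher than in WT. Of 13 tested members, 11 had both SOM libraries above both WT libraries and 0 below, where 27.9% and 31.9% of all genes did. DESeq2 called 3 higher and 0 lower (all genes 2.71% and 3.06%) and edgeR on 4 libraries 8 and 0 (all genes 7.54% and 8.17%). The median was 1.07, and 0.75 without WT 1. It was 0.74 in KO against WT, where 3 members rose, against 7.29% of all genes. Zic2, a zinc finger factor, stood at 33.6 and 13.0 CPM in SOM, 3.40 and 6.13 in WT and 34.9 and 34.0 in KO. The ETS factor Etv4, a target of FGF signalling, stood at 144 and 92.6 CPM against 24.3 and 63.2 in WT and 32.0 and 39.9 in KO. Otx2, a defining factor of that state, overlapped between the groups, with 12.3 and 42.1 CPM in SOM and 7.42 and 19.6 in WT.

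De novo DNA methylation genes were among the higher ones. DESeq2 called 3 of 14 members of the DNA methylation machinery higher and 0 lower, where it called 2.71% and 3.06% of all genes. EdgeR on 4 libraries called 5 higher and 0 lower, against 7.54% and 8.17%. The median was 0.28, and 0.16 without WT 1. Dnmt3a, a de novo methyltransferase, stood at 145 and 128 CPM in SOM, 45.9 and 73.2 in WT and 103 and 97.0 in KO. Dnmt3l, its cofactor, stood at 405 and 230 CPM in SOM, 49.6 and 132 in WT and 75.9 and 94.5 in KO. SOM was above both other groups, by 1.80 ± 0.42 against WT (DESeq2 adjusted p = 0.0029, primary edgeR 0.119 or above) and by 1.90 ± 0.42 against KO (edgeR adjusted p = 0.020). Trim28, a corepressor that acts at methylated imprinted loci, was at 1755 and 1044 CPM against 324 and 670. Dnmt1, the maintenance enzyme, differed by 0.42 ± 0.26 (edgeR adjusted p = 0.363).

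Germline genes that DNA methylation normally silences were lower than in WT. Of 26 tested members 16 had both SOM libraries below both WT libraries and 2 above, against 31.9% and 27.9% of all genes. DESeq2 called 3 lower and 0 higher, where it called 3.06% and 2.71% of all genes. EdgeR on 4 libraries called 8 lower and 0 higher of the 23 it tested, against 8.17% and 7.54%. The median was −0.85 (−0.35 without WT 1). In KO against WT it was −1.5, where 9 fell and 1 rose, against 5.9% and 7.29% of all genes. Dazl, an RNA-binding protein of germ cells, stood at 58.3 and 38.5 CPM in SOM, 232 and 86.9 in WT and 22.3 and 19.7 in KO. Sycp3, part of the synaptonemal complex, stood at 59.5 and 51.7 CPM in SOM, 173 and 74.3 in WT and 18.8 and 16.6 in KO. Sycp2, its partner, was at 6.51 and 4.89 CPM in SOM and 6.10 and 4.47 in KO, against 40.4 and 17.4 in WT. WT 1 was the highest library for all 3 genes. SOM lay between WT and KO for Dazl and Sycp3 and beside KO for Sycp2.

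Further genes that were below WT stood beside KO. Tmem181a stood at 21.6 and 21.2 CPM in SOM, 83.1 and 68.4 in WT and 22.1 and 22.5 in KO. It was 1.82 ± 0.26 below WT in SOM (DESeq2 adjusted p = 3.3e-06, primary edgeR 0.119) and fell by 1.76 ± 0.25 in KO (edgeR adjusted p = 0.0015). The difference between SOM and KO was −0.06 ± 0.25 (edgeR adjusted p = 0.93), and the 41584 and 41589 libraries lay between, at 40.7 to 62.3 CPM.

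Rbm44, a germ cell RNA-binding protein, stood at 8.40 and 9.21 CPM in SOM, 87.4 and 49.8 in WT and 6.59 and 4.93 in KO. The X-linked gene Efhc2 stood at 1.89 and 1.69 CPM in SOM, 216 and 40.04 in WT and 2.32 and 1.39 in KO. The WT libraries lay far apart, and edgeR on 4 libraries did not call it (adjusted p = 0.11) while DESeq2 did (adjusted p = 0.00019). All 10 libraries outside WT held 20.1 CPM or less. Zfy1, a Y-linked zinc finger gene, stood at 1.37 and 0.38 CPM in SOM and 49.5 and 20.6 in WT, and 41585 2 held 30.4. Eif2s3y, another Y-linked gene, stood at 90.5 and 111 CPM in SOM and 276 and 190 in WT, while KO 2 was at 0 and KO 1 at 116.

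**Figure D5:**
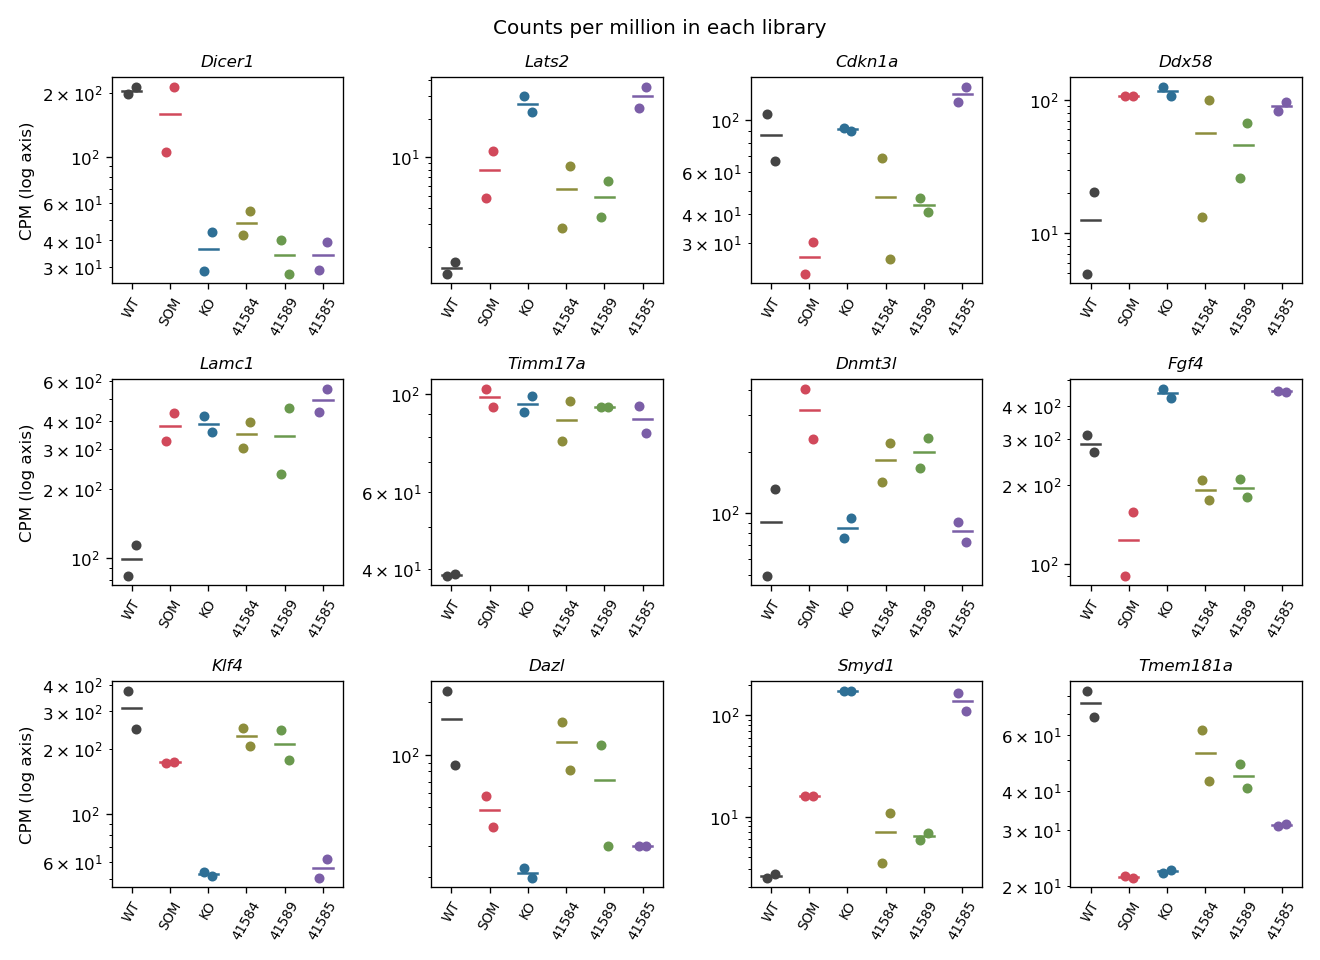
CPM on a log axis (y) of 12 genes in the 2 libraries (points) and their mean (bar) of each line (x axis). SOM stands beside KO and apart from WT for Lamc1, Timm17a, Ddx58 and Tmem181a, near or partway to WT for Dicer1, Klf4, Lats2 and Smyd1, and apart from both WT and KO for Cdkn1a, Dnmt3l and Fgf4.

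Among genes called by both DESeq2 and edgeR on 4 libraries (672, of which 315 were higher), the 12 largest differences each way held further examples. Gap43, a growth cone protein of neurons, stood at 18 and 12.8 CPM in SOM, 0.77 and 1.42 in WT and 0.12 and 0.31 in KO. It was thus above both groups, by 3.76 ± 0.74 against WT (DESeq2 adjusted p = 0.00032). The second libraries of 41584 and 41589, at 11.8 and 14.9 CPM, were close to SOM, and the first, at 2.69 and 7.06, were lower. Pdgfc, a growth factor ligand, stood at 17.3 and 24.99 CPM in SOM, between 2.78 and 2.08 in WT and 124 and 109 in KO. Folr1, a folate receptor, stood at 52.8 and 26.5 CPM in SOM, 2.94 and 8.31 in WT and 72.0 and 61.0 in KO. Samd9l, Ccnd2, Dusp27, Kdr, Ddx58, Pla2g7, Nab2 and Tgm3 were also on the higher side, at log2 differences of 2.76 to 3.45. Kdr, a VEGF receptor, was at 2.91 and 18.04 CPM in SOM against 1.39 and 1.09 in WT, so that SOM 2 carried most of it.

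On the lower side, Meiob, a meiotic recombination factor, stood at 1.2 and 2.07 CPM in SOM and 27.2 and 10.6 in WT, with 4.76 and 3.23 in KO. Atp2b2, a calcium pump of the plasma membrane, stood at 1.2 and 0.38 CPM against 12.7 and 7.33, with 1.34 and 1.69 in KO. Gstm3, a glutathione transferase, stood at 1.2 and 1.69 CPM in SOM against 13.2 and 12.6 in WT and 20.6 and 21.4 in KO, so that SOM was below both. H2-Q2 and H2-Q7, class I histocompatibility genes of a family with near-identical copies, were lower too, but reads could be split among such copies. The rest were Zfy1, Ptpn20, Catsperg1, Trank1, Mal2, Anxa8 and Rbm44, all below 10 CPM in both SOM libraries.

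Smyd1, a histone methyltransferase of muscle, lay between WT and KO in SOM. It stood at 15.9 and 15.97 CPM in SOM, 2.47 and 2.73 in WT and 176 and 174 in KO. SOM was 2.60 ± 0.44 above WT (DESeq2 adjusted p = 1.5e-05, primary edgeR 0.119 or above) and 3.45 ± 0.39 below KO (edgeR adjusted p = 0.00071). Sparc, a matrix glycoprotein, stood at 231 and 179 CPM in SOM, 80.9 and 93.2 in WT and 387 and 345 in KO. For both genes each SOM library lay between WT and KO.

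Mybl1, a transcription factor of meiosis, went beyond KO instead, at 19.5 and 39.6 CPM in SOM, 146 and 96.6 in WT and 76.5 and 72.7 in KO. It was lower in SOM than in KO by 1.34 ± 0.33 log2 units (edgeR adjusted p = 0.031). Gbx2, a homeobox target of STAT3, stood at 44.6 and 42.6 CPM in SOM, 3.40 and 10.3 in WT and 3.17 and 4.77 in KO. Its difference was 2.65 ± 0.64 against WT (DESeq2 adjusted p = 0.0019, primary edgeR 0.119 or above) and 3.46 ± 0.68 against KO (edgeR adjusted p = 0.011).

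In FGF and ERK signalling DESeq2 called 4 of 22 members higher and 1 lower, where it called 2.71% and 3.06% of all genes. EdgeR on 4 libraries called 6 higher and 1 lower, against 7.54% and 8.17%. The median was 0.44, and 0.19 without WT 1 and 0.70 without WT 2. Egr1, an immediate early target of ERK, stood at 102 and 105 CPM in SOM, 26.9 and 28.1 in WT and 139 and 123 in KO. Id1 and Id3, targets of BMP signalling, were the 2 of 25 members of the Nodal, TGF-beta and BMP list called by DESeq2. Id1 stood at 27.1 and 9.96 CPM in SOM against 4.18 and 5.80 in WT. Of 19 LIF and STAT3 members DESeq2 called Gbx2 and Klf4 in opposite directions (median −0.04), and of 18 Wnt members it called Ccnd1 higher (median 0.04). Leaving out 1 library turned the sign of the LIF and Wnt medians, at 0.061 without SOM 1 and −0.10 without SOM 2.

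The median of 25 G1/S regulators was 0.36, and 0.20 without WT 1 and 0.59 without WT 2. DESeq2 called 4 of them higher and 1 lower, where it called 2.71% and 3.06% of all genes. The 4 were cyclins Ccnd1, Ccnd2, Ccnd3 and Ccne1, and the 1 lower was the inhibitor Cdkn1a. Ccne1, which activates Cdk2 at S-phase entry, stood at 323 and 220 CPM in SOM, 94.0 and 165 in WT and 153 and 174 in KO. In the p53 pathway (26 members, median −0.15, and 0.061 without WT 1 and 0.023 without SOM 1) DESeq2 called Trp53 higher, at 280 and 236 CPM against 78.3 and 140, and its targets Cdkn1a and Rrm2b lower. Of 22 apoptosis regulators it called 2 higher, the survival factor Bcl2l1 and the effector Bak1.

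In the remaining lists counts are read against the 2.71% of genes that DESeq2 called higher and the 3.06% it called lower. It called 3 of 15 extra-embryonic endoderm members higher, Lamc1, Sparc and the endocytic receptor Lrp2, while the markers Gata4, Gata6, Sox17, Sox7 and Afp summed to 4.59 to 9.90 CPM in the 4 libraries. The median of that list was 0.55, and it ran from 0.12 without WT 2 and 0.20 without SOM 2 to 1.11 without WT 1. Of 30 imprinted genes it called 2 higher and 1 lower, with a median of 0.53 that was 0.16 without SOM 1. It called 2 of 14 mesenchymal genes higher, Vim and Sparc. Vim, an intermediate filament gene that is also the 1 of 4 fibroblast genes called, stood at 215 and 96.0 CPM in SOM against 26.9 and 52.2 in WT, with the feeder markers as given above.

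Ribosomal protein genes were not called by DESeq2 or the primary edgeR test, but edgeR on 4 libraries called 9 of 31 higher and 0 lower, against 7.54% and 8.17% of all genes. In 19 of them both SOM libraries lay above both WT libraries and in 0 below, against 27.9% and 31.9% of all genes. Their median was 0.42, and 0.25 without SOM 1. DESeq2 called 2 each way of 31 matrix genes, 2 higher of 20 Polycomb genes and 2 higher of 17 immediate early genes. The median of the immediate early list was nonetheless −0.50, and −0.052 without WT 1. DESeq2 called 1 lower each of 28 glycolysis, 20 cholesterol and 7 Y-linked genes. It and the primary edgeR test called 0 of the 15 two-cell, 4 mesendoderm, 5 neuroectoderm, 7 Hox, 24 stress response and 13 mitochondrially encoded genes. Of these, edgeR on 4 libraries called 1 higher and 1 lower in neuroectoderm, 1 lower Hox gene and 2 each way of the stress response. At an unadjusted p under 0.05 the primary test listed 9.96% of all genes higher and 11.7% lower. Of these lists it listed 6 ribosomal protein genes higher and 3 Hox genes lower. In mesendoderm and in neuroectoderm it listed 1 each way, and of the stress response 2 higher and 1 lower. It listed 0 two-cell and 0 mitochondrially encoded genes.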

How the data were processed

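The authors deposited 1 table of unnormalized read counts, whole numbers for 47643 Ensembl genes in 12 libraries. Reads were aligned with STAR 2.4.2a to mm10 (GRCm38), per the submitters' processing notes; libraries were reverse-stranded, per the labels' protocols. The counting program was not named in the sources used here. GENCODE M21 named and placed 47224 genes, leaving 419 under their identifiers.

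After filterByExpr, 14629 genes entered edgeR 4.0.16 (quasi-likelihood, TMM, 1 mean per group, 12 libraries, 6 residual degrees of freedom). Adjusted p is Benjamini-Hochberg over all genes tested, called under 0.05. DESeq2 1.42.0 and edgeR on the 4 libraries were alternatives, as were other scaling, filters, left-out libraries, a replicate block, and fits with a loess trend on GC and length removed. CPM uses TMM-scaled totals, and n = 2 per group.

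The rule names Dicer1, the 12 largest differences each way among called genes of at least 5 CPM, and up to 4 members of each of 34 lists. Because the primary fit called none, the 24 were taken from genes called by both alternatives, a choice made after their values were seen; 1 of them is not reported here. Other genes were chosen after their values were seen. Members and lists were chosen with earlier results of these data known. The edgeR and DESeq2 steps were tested on simulated data. Of 50 genes changed 2-fold, edgeR on 12 libraries recovered 11, edgeR on 4 libraries 12 and DESeq2 15. Of 50 changed 4-fold they recovered 41, 45 and 46. Unchanged genes called numbered 6, 13 and 25 in the same order.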

Additional observations from a re-analysis of the deposited data

How the results depend on the processing

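The number of genes called between SOM and WT depended on the fit. The primary edgeR fit gave 0. Size factors of DESeq2's kind, a filter of 1 CPM in 2 libraries, and leaving out chromosomes 15 and Y and the Dlk1-Dio3 region gave 0 as well. DESeq2 gave 681, edgeR on 4 libraries 2035, no low-count filter 1345, and edgeR without 41584 and 41589 2276. With the GC and length trend removed it gave 25 on 12 libraries and 2120 on 4. The replicate block gave 3 (Glul and Lamc1 higher, Tmem181a lower). Deviations of same-numbered WT and SOM libraries correlated at −0.058. That value covers WT and SOM only, so it cannot say whether replicate numbers pair samples across the lines. The lists of calls under the block were not used otherwise. Leaving out 1 library gave 0 to 1 calls in the primary fit (Trpm6, without SOM 1), 3 to 684 in DESeq2 and 396 to 2130 in edgeR on 4 libraries. In DESeq2 the count was 3 without WT 1 and 31 without SOM 1; in edgeR on 4 libraries it was 396 and 1048. With 1 library left in a group, its spread was taken from the others. The fitted median of the chromosome 1 stretch stayed above 0 in the fits named here, from 0.61 to 0.84 (without SOM 1). It was 0.82 and 0.83 with the trend removed on 12 and on 4 libraries.

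Dicer1 was at −0.97 to 0.068 on leaving out 1 library, the sign turning without SOM 1. Genes of low level or small difference also turned on leaving out 1 library, Tdpoz4 over −0.084 (without SOM 1) to 2.29, T over −1.44 to 0.47 (without WT 1) and mt-Cytb over −0.021 (without WT 2) to 0.85. Eomes ran from −0.22 to 0.26, turning without WT 2 (−0.15) and SOM 1 (−0.22) and with the trend removed (−0.019 on 12 libraries and −0.058 on 4). Thy1 ran from −0.20 to 0.39, turning without WT 1 (−0.15) and SOM 1 (−0.20) and with the trend removed (−0.071 and −0.13). The causes were not tested. Of the other gene values, 1400 kept side and direction and 514 became called under an alternative; of list medians, 346 stayed within the spread between libraries and 96 moved beyond it. Genes of a few CPM carry few reads at these depths, and their differences were not resolved.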
